A study of Mus musculus with 10 samples.

Results

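The 10 bile acid synthesis enzymes described here were Cyp7a1, Cyp8b1, Cyp27a1, Cyp7b1, Hsd3b7, Akr1d1, Amacr, Acox2, Slc27a5 and Baat. They were taken from the 18193 named genes of an Affymetrix liver series as probe sets annotated to 1 of these symbols alone, with the probe set of the highest mean signal standing for each gene. All 10 had such a probe set, and all 10 lay among the 11059 genes kept after a filter on low signals. The arrays measured livers of female mice of the inbred strains C57BL/6J and DBA/2J, neither of which is labelled as carrying a transgene or a treatment other than the diet. Each strain had 1 array before the diet (week 0) and 4 fed arrays, taken after 1, 4, 12 and 21 weeks of feeding with a high-fat, high-cholesterol diet, and each array held pooled RNA of 5 mice. The labels used here give neither the age of the mice nor the time of day at which livers were taken, and no array holds older mice kept off the diet, so that time on the diet and age cannot be told apart.

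Bile acids are made from cholesterol in hepatocytes. The classic pathway starts with the 7α-hydroxylase Cyp7a1, its rate-limiting enzyme, and the 12α-hydroxylase Cyp8b1 directs its products towards cholic acid. The acidic pathway starts with the sterol 27-hydroxylase Cyp27a1 and goes on through the oxysterol 7α-hydroxylase Cyp7b1. Hsd3b7 and Akr1d1 modify the sterol rings in both pathways, Amacr and Acox2 act on the side chain in peroxisomes, and Slc27a5 and Baat attach taurine or glycine to the finished acid. Bile acids returning to the liver lower Cyp7a1 and Cyp8b1 through the receptor Nr1h4 (FXR), the repressor Nr0b2 (SHP) and, from the gut, through the receptor pair Fgfr4 and Klb.

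The upstream sequences of Cyp8b1 and Hsd3b7 are shown because these were the members that passed the test between the strains. They come from a RefSeq table for GRCm38.p6, in which 5 of the 10 members were matched, with 6 transcription starts. Each sequence holds the 250 bases before the start and reads towards it, and capitals mark motif matches. That of Cyp8b1 lies on the minus strand at chr9:121916306-121916555 and that of Hsd3b7 on the plus strand at chr7:127800359-127800608.
Cyp8b1: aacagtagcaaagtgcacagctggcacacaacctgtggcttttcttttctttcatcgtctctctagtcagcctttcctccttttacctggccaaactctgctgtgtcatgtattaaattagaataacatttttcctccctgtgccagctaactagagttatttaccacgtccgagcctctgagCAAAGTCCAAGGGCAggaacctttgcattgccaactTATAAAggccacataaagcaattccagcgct
Hsd3b7: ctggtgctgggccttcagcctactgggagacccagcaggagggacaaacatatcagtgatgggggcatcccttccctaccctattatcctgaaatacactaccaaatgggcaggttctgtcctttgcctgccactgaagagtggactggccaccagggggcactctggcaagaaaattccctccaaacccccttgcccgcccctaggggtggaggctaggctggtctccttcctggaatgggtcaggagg
The first run of capitals in Cyp8b1 joins an HNF4 motif (CAAAGTCCA, at 67 to 59 bases before the start) and an LRH-1 motif (CAAGGNCA, at 60 to 53 bases), which overlap. The other run is a TATA box (TATAAA) at 31 to 26 bases before the start. Searched on both strands, the HNF4 motif occurred in 0.384% of 32851 promoters in the table, the LRH-1 motif in 5.53% and the TATA box in 12.4%. Each of these 3 motifs matched 1 of the 6 member promoters, that of Cyp8b1. The D-box TTANGTAA, found in 2.06% of promoters, and the E-box CACGTG, found in 6.02%, matched none of the 6. The motifs were chosen with the sequences in view, and a match is a description of the letters, not of binding.

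Levels below are log2 normalised signals, each from 1 array, and a difference of 1 between them is a 2-fold difference. The 2% trimmed mean of the deposited signals ranged from 55.8 to 88.7 over the arrays, a ratio of 1.59, which quantile normalisation removed. The week 0 arrays were the lowest, at 55.8 in C57BL/6J and 56.5 in DBA/2J, and all fed arrays lay at 68.5 or above. Array intensity thus ran along with the diet comparison, so the sizes of the diet changes depend on the normalisation. Hepatocyte markers identified the tissue in every array: the summed signal of 11 such genes lay between 65160 and 69780. That sum is dominated by genes at the top of the normalised scale, such as Alb, the albumin gene (12.51 to 12.65), and does not measure the share of hepatocytes. Markers of bile duct cells were low, with 4 of 5 measured genes under the filter (Krt7, Krt19, Sox9 and Cftr). Of 6 exocrine pancreas markers measured, 4 were highest in the C57BL/6J week 21 array (Cela2a, Ctrb1, Cpa1 and Cel) and 2 in a DBA/2J array (Cela1 and Cela3b). The summed signal of the 6 was 405 in the C57BL/6J week 21 array, at most 151.6 in the other C57BL/6J arrays and 274 to 584.5 in DBA/2J. The DBA/2J sums rest mainly on Cela1, at 7.84 to 9.08 in DBA/2J and 6.37 to 7.34 in C57BL/6J. Cela2a, Ctrb1, Cpa1 and Cel stood at 6.34, 5.88, 5.08 and 5.24 in the C57BL/6J week 21 array. In any other array they stood at most at 4.23, 2.92, 1.68 and 4.22. In whole liver, fewer cells of a type and less RNA per cell cannot be told apart.

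**Figure D1:**
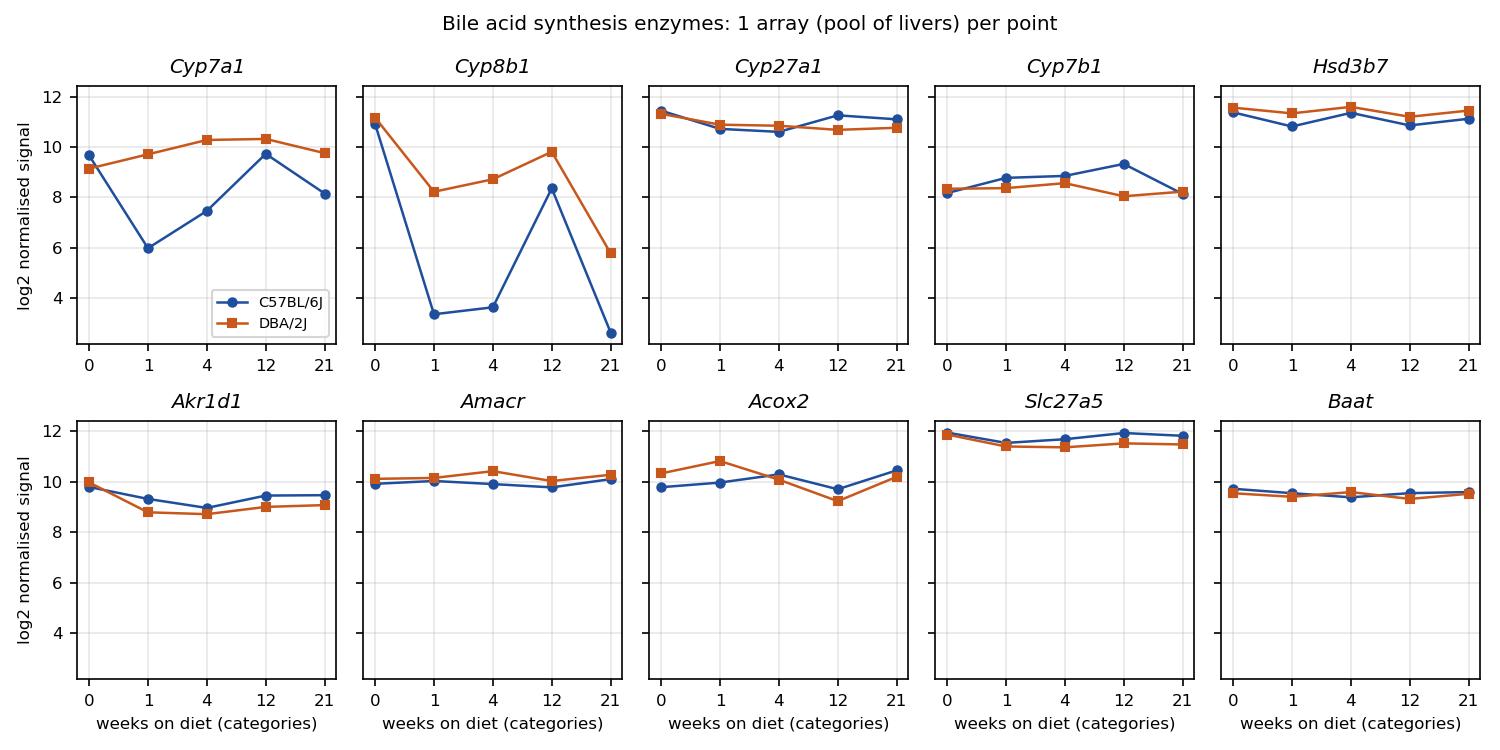
Log2 normalised signal of the 10 enzymes (vertical axis, the same scale in every panel) against weeks on the diet (horizontal axis, evenly spaced categories), with circles for C57BL/6J and squares for DBA/2J, 1 array per point. Cyp8b1 spans 2.63 to 11.17 and Cyp7a1 5.98 to 10.32, while each of the other 8 enzymes stays within 1.59 over the 10 arrays.

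Spread over the arrays separated the hydroxylases of the classic pathway from the other enzymes. The standard deviation over the 10 arrays was 3.19 for Cyp8b1, at the 99.98 percentile of the kept genes, and 1.40 for Cyp7a1, at the 99.22 percentile. Acox2 (0.44), Akr1d1 (0.42) and Cyp7b1 (0.40) lay between the 71.1 and 76.44 percentiles. Baat varied least on the probe sets used, with a standard deviation of 0.12 at the 5.362 percentile and levels from 9.32 to 9.72. Its second probe set varied more, from 6.78 to 7.51.

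The first comparison asked whether the enzymes differed between the strains over all 5 weeks. Cyp8b1 and Hsd3b7 were higher in DBA/2J and passed the test, and no member passed as lower. Of all genes tested, 7.98% passed in this comparison, 432 higher and 450 lower in DBA/2J. The median difference was 0.01 over the 10 members and 0.01 over all genes. At an unadjusted p under 0.05 there were 6 of 10 members, and 24% of all genes. The test was limma's moderated test with week as a block and Benjamini-Hochberg adjustment over all 11059 genes, with a threshold of 0.05, and every adjusted p below comes from such limma fits. The weeks stand in for replicates, so that errors of this fit measure how the strain difference varied between weeks. The diet fits below have no week block, and their errors include the course over the fed weeks.

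Cyp7a1 lay below its week 0 level in C57BL/6J at 3 of 4 fed weeks and lay above it in DBA/2J at all 4. In C57BL/6J it stood at 9.67 at week 0 and at 5.98, 7.46, 9.73 and 8.15 at weeks 1, 4, 12 and 21. In DBA/2J it stood at 9.14 at week 0 and at 9.71, 10.28, 10.32 and 9.76 at the same weeks. The C57BL/6J arrays of weeks 1, 4 and 21 were thus the lowest of the 10, and the C57BL/6J week 12 array lay within the DBA/2J fed range. The difference of DBA/2J minus C57BL/6J was −0.53 at week 0 and 3.73, 2.82, 0.59 and 1.60 at the fed weeks. Over all weeks it was 1.64 ± 0.54 (SE, 5 arrays per strain, adjusted p = 0.108). Over the fed weeks alone it was 2.19 ± 0.46 (4 arrays per strain, adjusted p = 0.0432), which passed, as did 707 of all 11059 genes in that fit.

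A second Cyp7a1 probe set followed the one used. Its fed mean minus week 0 was −2.08 in C57BL/6J, and −1.84 on the probe set used. In DBA/2J this difference was 0.74, and 0.87 on the probe set used. Both probe sets thus had the C57BL/6J fed mean below and the DBA/2J fed mean above the week 0 level.

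**Figure D2:**
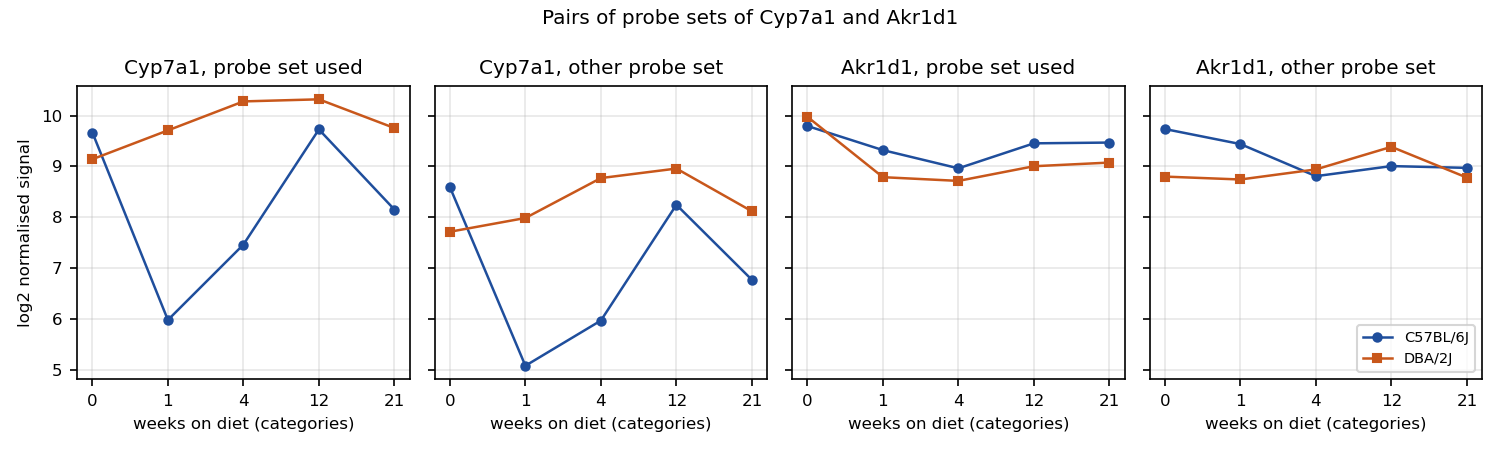
Log2 normalised signal of both probe sets of Cyp7a1 (left pair of panels) and of Akr1d1 (right pair) against weeks on the diet (evenly spaced categories), circles for C57BL/6J and squares for DBA/2J, 1 array per point. The Cyp7a1 probe sets share the C57BL/6J low point at week 1, while for Akr1d1 the DBA/2J week 0 value is 9.98 on the probe set used and 8.80 on the other.

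Cyp8b1 was close between the strains before the diet and lower in both on it, with the larger drop in C57BL/6J at each fed week. In C57BL/6J it stood at 10.92 at week 0 and at 3.36, 3.63, 8.36 and 2.63 at weeks 1, 4, 12 and 21. In DBA/2J it stood at 11.17 at week 0 and at 8.22, 8.72, 9.81 and 5.78 at the same weeks. On the deposited linear scale the C57BL/6J signal went from 1529 to 10.6, 13.2, 328 and 5.90, and the DBA/2J signal from 1939 to 275, 403, 1022 and 62.0. All 8 fed arrays lay below both week 0 arrays, week 12 was the highest fed week in each strain and week 21 the lowest, and the fed ranges of the strains overlapped. DBA/2J exceeded C57BL/6J 1.19-fold at week 0, then 29.2-fold, 34.0-fold, 2.74-fold and 8.84-fold at weeks 1, 4, 12 and 21. The C57BL/6J levels at weeks 1, 4 and 21 lay under the filter on low signals of 3.74, and the large folds depend on them. The fitted difference was 2.96 ± 0.67 (adjusted p = 0.0351), higher in DBA/2J at 5 of 5 weeks, and the call was lost without any 1 of the 8 fed arrays, with eBayes without trend (adjusted p = 0.0706) and without the week block (adjusted p = 0.305).

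**Figure D3:**
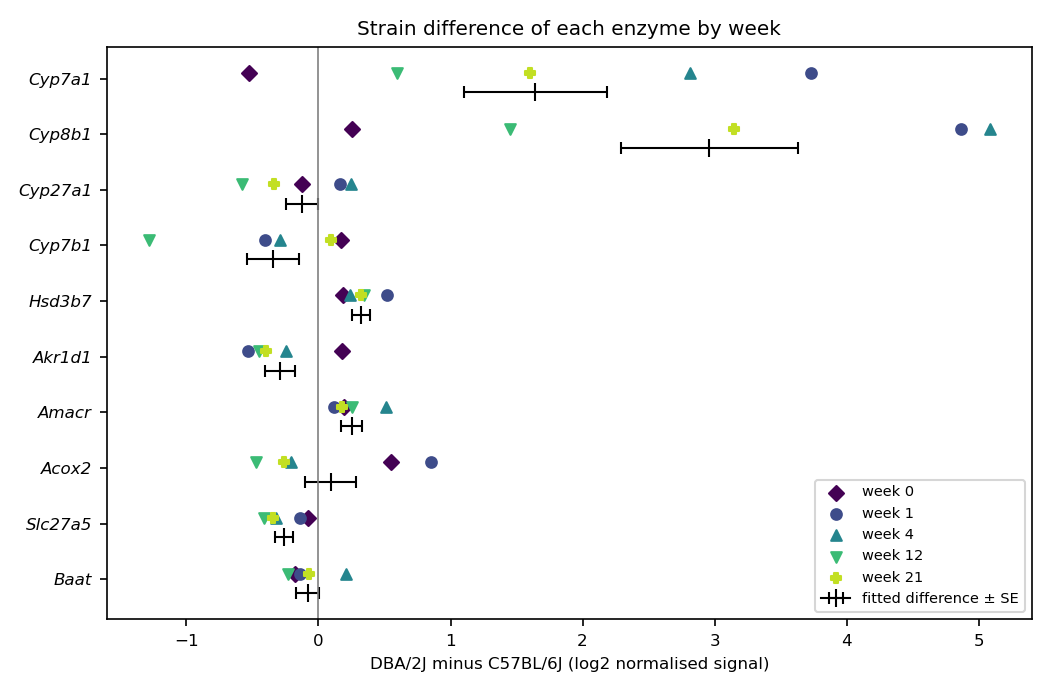
Difference of DBA/2J minus C57BL/6J in log2 normalised signal (horizontal axis) for each enzyme (vertical axis), with 1 symbol per week and, below, the fitted difference over 5 weeks with its standard error (bar). Cyp8b1 runs from 0.25 at week 0 to 5.09 at week 4 and Cyp7a1 from −0.53 to 3.73, while Hsd3b7 lies to the right of zero at every week.

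The acidic pathway enzymes did not pass between the strains. Cyp27a1 stood at 11.45, 10.72, 10.60, 11.26 and 11.10 in C57BL/6J at weeks 0, 1, 4, 12 and 21. In DBA/2J it stood at 11.32, 10.89, 10.85, 10.68 and 10.76, and DBA/2J was higher at 2 of 5 weeks, with a fitted difference of −0.13 ± 0.12 (adjusted p = 0.571). Cyp7b1 stood at 8.17, 8.77, 8.85, 9.33 and 8.14 in C57BL/6J and at 8.34, 8.37, 8.56, 8.04 and 8.23 in DBA/2J. C57BL/6J was the higher strain at weeks 1, 4 and 12, where Cyp7b1 also exceeded its C57BL/6J week 0 level. On a second Cyp7b1 probe set DBA/2J was higher at week 1 (7.69 against 7.63) and at week 4 (7.87 against 7.83). C57BL/6J was higher there at week 12 (8.22 against 7.40). The mean difference over all weeks was −0.03 on that probe set, so the strain direction at weeks 1 and 4 rests on the probe set used. The fitted difference of Cyp7b1 was −0.34 ± 0.20 (adjusted p = 0.332).

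Among the ring-modifying enzymes, Hsd3b7 was higher in DBA/2J throughout. The 3β-hydroxysteroid dehydrogenase stood at 11.38, 10.82, 11.36, 10.86 and 11.12 in C57BL/6J and at 11.56, 11.34, 11.59, 11.20 and 11.45 in DBA/2J. DBA/2J lay higher at each of the 5 weeks, although the ranges overlapped, by 0.32 ± 0.07 (adjusted p = 0.0288). This is a 1.25-fold difference, and it was lost on the values as deposited (adjusted p = 0.0772), without a filter on low signals (adjusted p = 0.0622), with eBayes without trend (adjusted p = 0.104), without the week block (adjusted p = 0.166) and without any 1 fed array. The 5β-reductase Akr1d1 stood at 9.80, 9.32, 8.96, 9.46 and 9.47 in C57BL/6J and at 9.98, 8.79, 8.72, 9.005 and 9.08 in DBA/2J. DBA/2J was thus lower at the 4 fed weeks, and the difference over all weeks was −0.29 ± 0.11 (adjusted p = 0.168). Over the fed weeks alone it was −0.41 ± 0.09 (adjusted p = 0.04997), just past the threshold. On the second Akr1d1 probe set DBA/2J was higher at week 4 (8.94 against 8.81) and at week 12 (9.39 against 9.01), and the fed means were 8.96 in DBA/2J and 9.06 in C57BL/6J, so the direction over the fed weeks and this call rest on the probe set used.

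No side-chain or conjugating enzyme passed between the strains. Amacr, the racemase of the side chain, stood at 9.92, 10.03, 9.91, 9.78 and 10.11 in C57BL/6J and at 10.12, 10.15, 10.42, 10.03 and 10.28 in DBA/2J. DBA/2J was higher at all 5 weeks, but at 4 of 5 on the deposited values, and the difference of 0.25 ± 0.08 did not pass (adjusted p = 0.0994). Acox2, the branched-chain acyl-CoA oxidase, stood at 9.79, 9.97, 10.30, 9.71 and 10.46 in C57BL/6J and at 10.33, 10.83, 10.09, 9.23 and 10.20 in DBA/2J, with no common direction (0.09 ± 0.19, adjusted p = 0.817). Slc27a5, the bile acyl-CoA synthetase, stood at 11.96, 11.55, 11.69, 11.94 and 11.83 in C57BL/6J and at 11.88, 11.40, 11.37, 11.53 and 11.49 in DBA/2J. It was lower in DBA/2J at 5 of 5 weeks by 0.26 on the log2 scale (−0.26 ± 0.07, adjusted p = 0.0619), without passing. Baat, the conjugating transferase, stood at 9.72, 9.55, 9.39, 9.55 and 9.59 in C57BL/6J and at 9.55, 9.41, 9.59, 9.32 and 9.53 in DBA/2J, a difference of −0.08 ± 0.09 (adjusted p = 0.607).

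Counted by week, 3 of 10 members were higher in DBA/2J at all 5 weeks (Cyp8b1, Hsd3b7 and Amacr), against 11.6% of all genes. Lower at all 5 weeks was 1 member, Slc27a5, against 11.2% of all genes, but on values centred on the kept genes it was lower at 3 weeks and higher at 2. The fed arrays of the strains did not overlap for 1 member with DBA/2J lower, Slc27a5 again, against 7.74% of all genes, and for 0 members with DBA/2J higher, against 8.06%. Slc27a5 overlapped between the strains on the deposited values and on values centred on the kept genes.

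The second comparison asked what changed on the diet, with the 8 fed arrays set against the 2 week 0 arrays and strain as a term. None of the 10 members passed (limma), while 0.651% of all genes did, 46 higher and 26 lower. At an unadjusted p under 0.05 there were 4 of 10 members, Cyp8b1, Cyp27a1, Akr1d1 and Slc27a5, all with lower fed means, and 17.4% of all genes. The median change was −0.29 over the members and 0.01 over all genes. On the values as deposited the median of all genes moved to 0.52, so changes there are read relative to it. Relative to all genes, the deposited values gave −4.86 for Cyp8b1, −0.88 for Akr1d1, −0.73 for Cyp27a1 and −0.60 for Slc27a5.

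Cyp8b1 had the largest fitted change of the members, −4.73 ± 1.40 (SE, adjusted p = 0.127). It ranged from −3.03 without the C57BL/6J week 0 array to −6.42 without the DBA/2J week 0 array. On the deposited values it was −4.34 ± 1.29 (adjusted p = 0.0203), past the threshold in a fit that 4990 of all genes passed, 4949 of them as higher. Akr1d1 gave −0.79 ± 0.17 (adjusted p = 0.0630), Cyp27a1 −0.52 ± 0.15 (adjusted p = 0.119) and Slc27a5 −0.32 ± 0.10 (adjusted p = 0.153). Without the DBA/2J week 0 array, Akr1d1 gave −0.49 and Slc27a5 −0.20. The pooled Akr1d1 value also depends on the probe set used. On the second one the fed mean minus week 0 was −0.68 in C57BL/6J and 0.16 in DBA/2J. The fitted values of the other 6 were −0.48 ± 0.79 for Cyp7a1, −0.25 ± 0.14 for Hsd3b7, −0.15 ± 0.10 for Baat, 0.28 ± 0.26 for Cyp7b1, 0.07 ± 0.12 for Amacr and 0.04 ± 0.33 for Acox2. The fitted Cyp7a1 changes had opposite signs in the 2 strains, −1.84 in C57BL/6J and 0.87 in DBA/2J, so the pooled value lies between them. Neither of these changes passed, nor did the difference between them.

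All 8 fed arrays lay below both week 0 arrays for 3 members, Cyp8b1, Cyp27a1 and Akr1d1, against 6.01% of all genes. This count depends on the probe sets used. The second Akr1d1 probe set did not show the pattern, with 8.80 at DBA/2J week 0 and 9.44 at C57BL/6J week 1. The second Baat probe set did, with fed arrays between 6.78 and 7.31 and week 0 arrays at 7.44 and 7.51. They lay above for 0 members, against 6.28%. On the deposited values the pattern held for Cyp8b1 alone, and on centred values Slc27a5 joined the 3.

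Within C57BL/6J none of the members passed (limma), against 0.118% of all genes, and 3 of 10 had an unadjusted p under 0.05, against 12.6% of all genes. The fed mean of Cyp8b1 lay at −6.42 ± 1.95 from week 0 (adjusted p = 0.262), with 3 of the 4 fed levels under the filter on low signals. Cyp7a1 gave −1.84 ± 1.00 (adjusted p = 0.462), and its 4 fed weeks ranged from −3.69 to 0.06. Cyp7b1 gave 0.60 ± 0.36 (adjusted p = 0.494), and on the deposited values, where the median of all genes was 0.58, it gave 1.16 ± 0.34 (adjusted p = 0.0427), past the threshold in a fit that 1946 of all genes passed. Cyp27a1 (−0.53 ± 0.22), Akr1d1 (−0.49 ± 0.21), Hsd3b7 (−0.34 ± 0.21) and Slc27a5 (−0.21 ± 0.14) had lower fed means without passing.

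Within DBA/2J none of the members passed either, against 0.118% of all genes, and 3 of 10 had an unadjusted p under 0.05, against 11.4% of all genes. Akr1d1 gave −1.08 ± 0.21 (adjusted p = 0.101), and its 4 fed arrays spanned 8.72 to 9.08 under a week 0 level of 9.98. The second Akr1d1 probe set differed: its fed mean minus week 0 was 0.16 in DBA/2J and −0.68 in C57BL/6J. The lower fed level of Akr1d1 in DBA/2J therefore rests on the probe set used. Cyp8b1 gave −3.04 ± 1.95 (adjusted p = 0.614), Cyp27a1 −0.52 ± 0.22, Slc27a5 −0.43 ± 0.14, Hsd3b7 −0.17 ± 0.21 and Cyp7b1 −0.04 ± 0.36. Cyp7a1 gave 0.87 ± 1.00 (adjusted p = 0.804), with all 4 fed arrays above week 0.

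**Figure D4:**
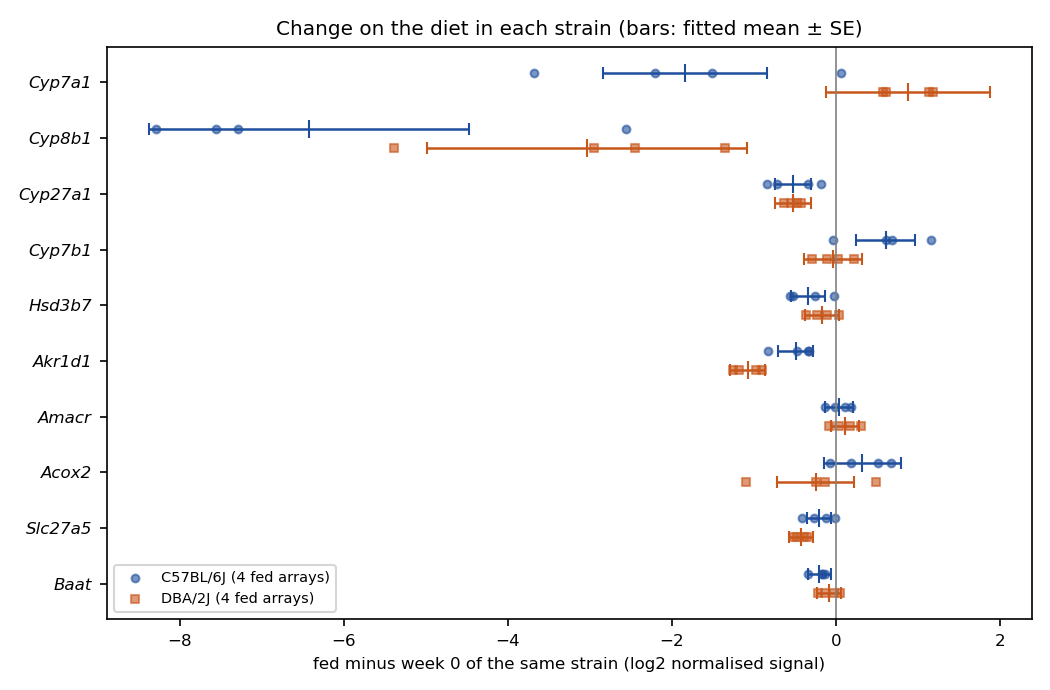
Change from week 0 of the same strain in log2 normalised signal (horizontal axis) for each enzyme (vertical axis), with 1 circle (C57BL/6J) or square (DBA/2J) per fed array and the fitted mean change with its standard error (bar). The 4 C57BL/6J values of Cyp8b1 lie between −8.29 and −2.56, and those of Cyp7a1 between −3.69 and 0.06, while every DBA/2J value of Cyp7a1 lies above zero.

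The difference between the 2 diet changes was tested as an interaction, which 0.00904% of all genes, 1 gene, passed. No member passed, and 0 of 10 had an unadjusted p under 0.05, against 6.08% of all genes. The DBA/2J change exceeded that of C57BL/6J by 2.71 ± 1.42 in Cyp7a1 (adjusted p = 0.860) and by 3.39 ± 2.76 in Cyp8b1 (adjusted p = 0.924). In Akr1d1 the difference was −0.59 ± 0.30 (adjusted p = 0.851), and 0.13 when both probe sets were averaged. With 1 week 0 array per strain, whose spread is assumed equal to that of the fed arrays, the errors of the Cyp7a1 and Cyp8b1 differences were large beside their size.

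The course over the fed weeks was tested as a slope on log2(week), with strain as a term. No gene passed, members included (0% of all genes), and 1 of 10 members had an unadjusted p under 0.05, against 4.73% of all genes. That member was Slc27a5, with 0.05 ± 0.02 per doubling of the time (adjusted p = 0.972). Cyp7a1 gave 0.35 ± 0.16 (adjusted p = 0.972). The slopes of the other 8 lay between −0.09 and 0.06.

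Other genes of the pathway were compared in the same way. Of 13 listed, 11 were measured and 10 kept. Fdx1, the ferredoxin that passes electrons to mitochondrial P450 enzymes such as Cyp27a1, was higher in DBA/2J by 0.49 ± 0.10 (adjusted p = 0.0272). It was the only one of the 10 to pass between the strains, against 7.98% of all genes. Cyp39a1 (−0.98 ± 0.28, adjusted p = 0.0736) and Cyp46a1 (0.98 ± 0.26, adjusted p = 0.0625) had larger strain differences without passing. None passed for the diet (limma), against 0.651% of all genes, and 3 of 10 had an unadjusted p under 0.05, against 17.4% of all genes. Cyp39a1, an oxysterol 7α-hydroxylase, had the largest fitted diet change, −1.64 ± 0.43 (adjusted p = 0.0941). It stood at 10.17 in C57BL/6J and 9.01 in DBA/2J at week 0, and between 7.52 and 9.01 in the C57BL/6J fed arrays and between 6.71 and 8.50 in those of DBA/2J.

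Among regulators of bile acid synthesis, 15 of 17 were measured and kept, and 3 passed as higher in DBA/2J, in a comparison that 7.98% of all genes passed. Fgfr4, the hepatocyte receptor of the gut signal, was higher by 0.81 ± 0.11 (adjusted p = 0.00517), with C57BL/6J between 7.02 and 7.41 and DBA/2J between 7.92 and 8.25. Ppara, a fatty acid receptor, was higher by 0.82 ± 0.18 (adjusted p = 0.0333) and the clock repressor Nr1d1 by 1.16 ± 0.23 (adjusted p = 0.0229). Nr0b2 stood at 7.74 in C57BL/6J at week 0 and at 9.58, 8.83, 8.52 and 8.998 at weeks 1, 4, 12 and 21. In DBA/2J Nr0b2 stood at 9.54 at week 0 and at 9.24, 9.74, 9.42 and 9.81. All 4 C57BL/6J fed arrays thus lay above week 0, but the change of 1.25 ± 0.34 did not pass (adjusted p = 0.231). In C57BL/6J Nr0b2 was highest at week 1, the week with the lowest Cyp7a1, while Cyp8b1 was lowest at week 21 (2.63). In DBA/2J Nr0b2 lay between 9.24 and 9.81 at all weeks, with Cyp7a1 between 9.14 and 10.32. The part of Nr0b2 in the enzymes' levels was not tested. Nr1h4 ranged from 8.54 to 9.66 and was lowest at weeks 1 and 4 in C57BL/6J.

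Some clock genes differed between week 0 and the fed arrays in the fit over both strains. Dbp, a clock-controlled activator that binds D-boxes and is known to act on Cyp7a1, stood at 5.58 and 5.97 at week 0 and between 7.84 and 10.53 in the fed arrays (diet change 3.92 ± 0.42, adjusted p = 0.0140). Of 14 clock genes kept, 4 rose (Dbp, Nr1d1, Nr1d2 and Per3) and 1 fell (Arntl), against 0.651% of all genes. None of the 14 passed within C57BL/6J, and Dbp alone passed within DBA/2J, against 0.118% of all genes in each strain. The labels give no time of day, so a difference in sampling time between week 0 and fed arrays cannot be told apart from the diet. The part of the clock genes in the enzymes' changes was not tested.

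Macrophage and Kupffer cell markers are given beside the hydroxylases, since their summed signal varied over the C57BL/6J arrays. Of 16 measured, 15 were kept. The summed signal of all 16 in C57BL/6J was 3580 at week 0 and 7670, 19620, 3783 and 11650 at weeks 1, 4, 12 and 21. In DBA/2J the sum lay between 3670 and 5300, while Cyp8b1 stood at 11.17 at week 0 and at 5.78 at week 21. All 15 kept markers had a lower fitted level in DBA/2J than in C57BL/6J. Of them 1 passed, Gpnmb (−3.62 ± 0.72, adjusted p = 0.0226), against 7.98% of all genes. Week 12 in C57BL/6J, where the sum was near that of week 0, was the fed week with the highest Cyp7a1 and Cyp8b1 in that strain. None of the 15 passed for the diet in either strain (limma, 3 of 15 at an unadjusted p under 0.05 in C57BL/6J, against 12.6% of all genes, and 0 of 15 in DBA/2J). The acute phase gene Saa3 stood at 6.36 in C57BL/6J at week 0 and at 8.71, 11.17, 6.95 and 8.71 at the fed weeks. None of 12 acute phase genes passed for the diet in C57BL/6J (0 of 12 at an unadjusted p under 0.05, against 12.6% of all genes). Of these 12, 8 had a higher and 4 a lower fed mean, and Saa3 had the largest difference. In DBA/2J 11 of the 12 had a lower fed mean, Saa3 not among them, and none passed. The part of these cells and genes in the enzymes' levels was not tested.

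**Figure D5:**
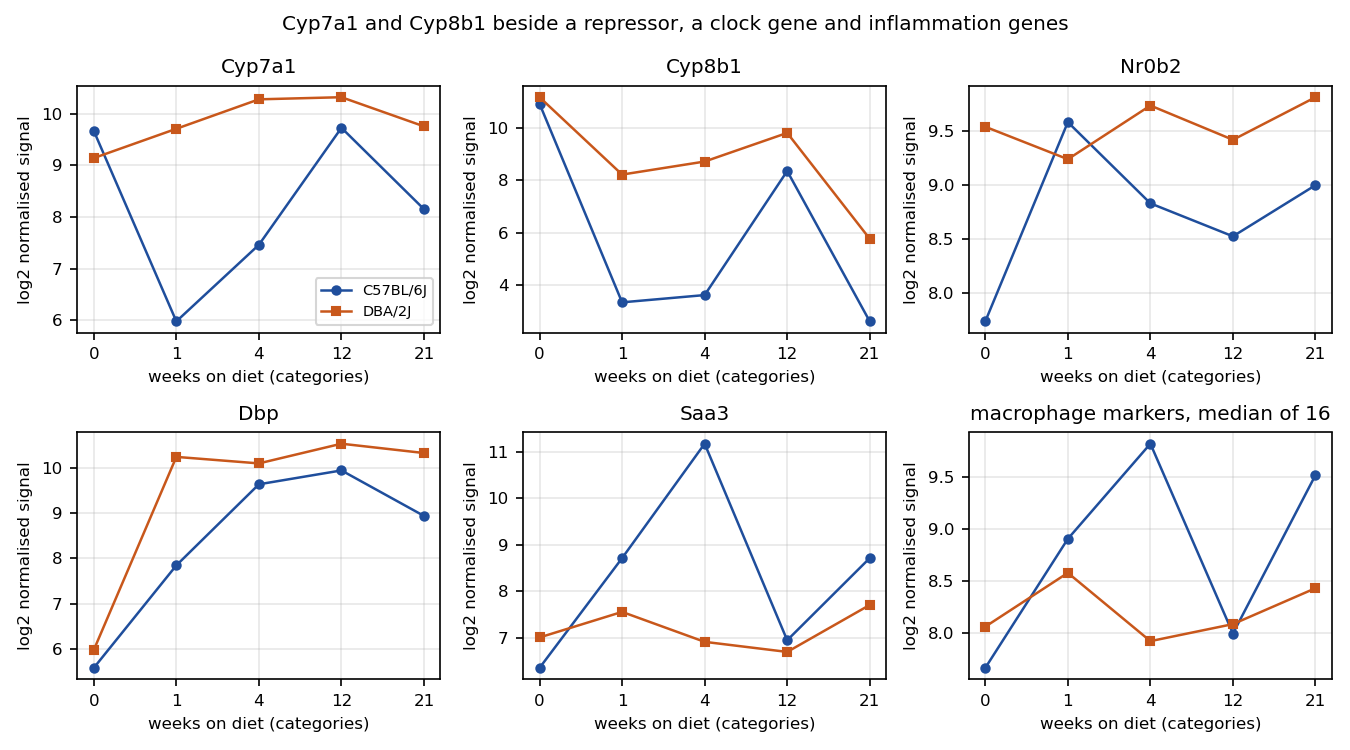
Log2 normalised signal (vertical axis, a separate scale in each panel) of Cyp7a1, Cyp8b1, Nr0b2, Dbp and Saa3 and the median of 16 macrophage markers against weeks on the diet (evenly spaced categories), circles for C57BL/6J and squares for DBA/2J, 1 array per point. In C57BL/6J, Cyp7a1 and Cyp8b1 are high at weeks 0 and 12, where Saa3 (6.36 and 6.95) and the macrophage markers are low, and Dbp is lowest at week 0 in both strains.

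The genes whose levels ran most like those of the hydroxylases are given as a description, over the same 10 arrays. For Cyp7a1 these were 4930445K14Rik (Pearson r = 0.948), Pcmtd1 (0.944) and Nat8f2 (0.937). For Cyp8b1 they were Dio1, the type 1 deiodinase (0.962), Sult2a8, a sulfotransferase of liver (0.951), and Mau2, a cohesin loader subunit (0.950). For Cyp7b1 they were Micall2 (0.900), Srr, serine racemase (0.878), and Cenpc1 (0.874). Dio1 ranged from 9.37 to 10.94 while Cyp8b1 ranged from 2.63 to 11.17. The highest of 11059 correlations is high by selection, and the arrays share strains and weeks.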

How the data were processed

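Liver RNA was extracted with Trizol and pooled from 5 mice per strain and week, per the labels' protocols. The deposited values are linear signal intensities that the authors computed with GCOS, per the submitters' processing notes; its version is not given in the sources used here. Of 45101 probe sets, 34945 had 1 symbol and were no controls, 932 had several and 9160 had none. The arrays were quantile normalised and analysed as log2(signal + 1.05), the 10th percentile of the deposited values. Each gene took its highest-mean probe set and was kept where that mean exceeded 3.74, the 50th percentile, which left 11059 genes.

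Fits used limma 3.58.1 (lmFit, eBayes with trend) in R 4.3.3 with data.table (version 1.17.8), with Benjamini-Hochberg adjustment and a threshold of 0.05. Residual degrees of freedom were 4 between the strains, with the week as block because the labels pair 1 pool per strain at each week, 7 for the diet, 6 within strains and 5 for the trend. Where a strain's only week 0 array is left out, its fed arrays no longer inform the diet change. The scripts were tested on simulated data. Plots used matplotlib 3.10.9 under Python 3.11.15. The number of arrays limits precision, and p-values measure the spread between single pools at different weeks. Members and gene lists were chosen with earlier results of these data known. Named were the members and, of each further list, up to 4 genes per comparison with the largest change, first those that passed; not all of these are printed. The Nr0b2, Nr1h4, Saa3, Alb and exocrine pancreas marker levels and the motifs were chosen after their values were seen. So were the second probe sets of Akr1d1, Cyp7b1 and Baat and the strain differences of Cyp39a1 and Cyp46a1. Alternatives were the deposited values, centring, a pseudocount of 16, no filter, the mean of probe sets, eBayes without trend, other designs and each array left out; leaving out both week 12 arrays was added after seeing the data.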

Additional observations from a re-analysis of the deposited data

How the results depend on the processing

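The strain count of 2 members fell to 1 on deposited values and without a filter, and to 0 with eBayes without trend, without the week block (no replicate block) and without both week 12 arrays; over the fed weeks alone it was 4 (707 of all genes, 330 higher and 377 lower), and with each array left out 0 to 4 (4 without either week 0 array, 0 without any 1 fed array). The diet count of 0 became 3 on deposited values (2 higher, Amacr and Cyp7b1, and 1 lower, Cyp8b1), with the median of all genes at 0.52, and 1 without both week 12 arrays; within C57BL/6J it became 2 and 1. The week 12 arrays were left out because their Cyp8b1 levels lay closest to week 0, so that fit supports no call. Of all genes, 4990 passed for the diet on deposited values (4949 higher, 41 lower) against 72 (46 and 26), 74 on centred values (35 and 39), and 611 between the strains on deposited values (208 and 403) against 882 (432 and 450). With each array left out, 384 to 721 genes passed between the strains and 14 to 93 for the diet. Within C57BL/6J, where 13 passed, each array left out gave 0 to 22 and deposited values 1946; within DBA/2J, where 13 passed, 6 to 21 and 45. Both within-strain counts moved with a pseudocount of 16 (0 and 2), centring (0 and 7), eBayes without trend (33 and 38) and both week 12 arrays left out (26 and 25), and that in DBA/2J also without a filter (8). Without both week 12 arrays 422 genes passed between the strains, and the interaction had 0 or 1 throughout.

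Signs turned only where the change had not passed, and the cause was not tested. On deposited values the diet changes became 0.30 for Baat, 0.0021 for Cyp7a1 and 0.059 for Hsd3b7 (0.050 in C57BL/6J, 0.067 in DBA/2J), 0.064 for Slc27a5 in C57BL/6J and 0.42 for Cyp7b1 in DBA/2J. Relative to the median of all genes over both strains, 0.52, Baat (−0.22), Cyp7a1 (−0.52) and Hsd3b7 (−0.46) stayed negative there. On that relative scale Acox2 (−0.10) and Amacr (−0.05) turned negative. Centring gave −0.15 for Acox2 and −0.10 for Amacr; averaging probe sets gave −0.13 for Cyp7b1 and, for the Akr1d1 interaction, 0.13; the fed weeks alone gave −0.021 for the Acox2 strain difference; and leaving out both week 12 arrays gave 0.043 for Cyp7b1 in DBA/2J. With each array left out, the diet changes ranged from −0.25 to 0.32 in Acox2, −1.83 to 0.87 in Cyp7a1 and −0.041 to 0.60 in Cyp7b1 (−0.13 to 0.044 in DBA/2J), and the Acox2 strain difference from −0.10 to 0.23.

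Cyp8b1 between the strains ranged from 2.42 to 3.65 with each array left out (adjusted p = 0.0161 to 0.109). A pseudocount of 16 changed no call or sign of a member. One pool per strain and week, and low C57BL/6J signals of Cyp8b1, limit these results.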
